A study of Mus musculus with 4 samples.

Results

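Genes of fat cells and of lipid storage were followed in the 2 lymph nodes that drain the pancreas of the NOD mouse, an inbred strain that develops autoimmune diabetes spontaneously. The set holds 34 genes chosen by symbol for their known roles, and probes were found by matching each probe's transcript accession to these symbols. A probe was matched for 32 of the 34, and 30 were bright enough to be tested among 21329 genes and unnamed transcripts in all. No probe was matched for Adrb3, which encodes the adrenergic receptor of fat cells, or for Pck1, which encodes an enzyme of glyceroneogenesis. The probes of Lep, the leptin gene, and Ucp1, the uncoupling protein gene of brown fat, were too dim to be tested.

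Each of 4 female NOD mice aged 12 weeks gave both nodes, with no treatment or altered allele named in the labels. Gastric node RNA (the left pancreatic node) was labelled with Cy5 and pancreatico-duodenal node RNA (the right one) with Cy3, and both were hybridised to 1 array per mouse. Ratios are given on the log2 scale with the gastric node on top, and a value above 0 stands for a higher level there. All arrays had the same dye orientation, so dye and node cannot be told apart in a difference shared by all mice. The p-values measure the spread between these 4 mice.

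White fat cells store triglyceride in a single large droplet that is coated by perilipins and CIDE proteins. They take up fatty acids released by lipoprotein lipase, make further fatty acids from citrate, esterify them, and release them again through lipolysis when energy is needed. They also secrete adipokines into the blood, and the transcription factors PPAR gamma and C/EBP alpha drive their differentiation. Lymph nodes lie embedded in fat, and a dissected node may carry some of it.

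The arrays lay on 1 slide and shared 1 scan, per the file headers. In the gastric channel 67.6% to 71.8% of spots were well above background and in the other channel 60.2% to 63.1%, with no saturated spot, and the number of arrays, 4, limits the precision. The ratios of all probes correlated positively between every pair of arrays, with Pearson's r across probes from 0.16 for mice 1 and 3 to 0.58 for mice 2 and 4 (probes are not independent replicates). Lymphocyte markers were bright in both nodes, with 9 of 10 T cell and 8 of 8 B cell markers measured and list medians between -0.09 and 0.27 in the 4 mice. Fat cell markers were present as well: Adipoq, Cfd, Plin1, Cidec and Fabp4 were well above background in both nodes on all 4 arrays. Mouse 3 stood apart in exocrine pancreas genes, whose median log2 ratio over 16 measured genes was -4.75 there against -0.33, 0.22 and 0.85 in mice 1, 2 and 4.

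The fat cell genes differed strongly between the 2 nodes of single mice, and the direction depended on the mouse. In mouse 1 the median log2 ratio of the 30 genes was 0.80, and 26 of them were above 0 (55.1% of all features). The median was -0.91 in mouse 2 and -0.66 in mouse 4, with 1 gene above 0 in each (55.9% and 55.1% of all features). In mouse 3 it was -0.05, with 13 genes above 0 and 17 below (52.9% of all features above 0). The median of all features lay between 0.01 and 0.03 on the same arrays. When the arrays were centred on their median rather than by loess, the fat cell gene medians were 1.10, -0.37, 0.21 and -0.29, so that mouse 3 was then above 0.

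With 1 array per mouse there is no test within a mouse, and a difference of more than 2-fold was counted instead. In mouse 1, 12 of 30 genes were more than 2-fold higher in the gastric node, against 1.55% of all features, and none was more than 2-fold lower (0.0891% of all features). In mouse 2, 14 of 30 were more than 2-fold lower, against 0.394% of all features, and none was more than 2-fold higher (0.075%). In mouse 4, 9 were more than 2-fold lower (0.3% of all features) and none more than 2-fold higher (0.0844%). In mouse 3, 2 were more than 2-fold higher (0.117% of all features), Cfd and Car3, and none was more than 2-fold lower, where 0.891% of all features were. In mice 1, 2 and 4 the share past 2-fold was larger among these genes than among all features, in the direction of that mouse. The share more than 2-fold higher was also larger in mouse 3, though from 2 genes. With the scanner software's processed signals or the authors' series table, 6 of 30 were more than 2-fold higher in mouse 3. No share of all features was taken for those settings.

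The plot of every gene by mouse shows this alternation across roles.

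**Figure D1:**
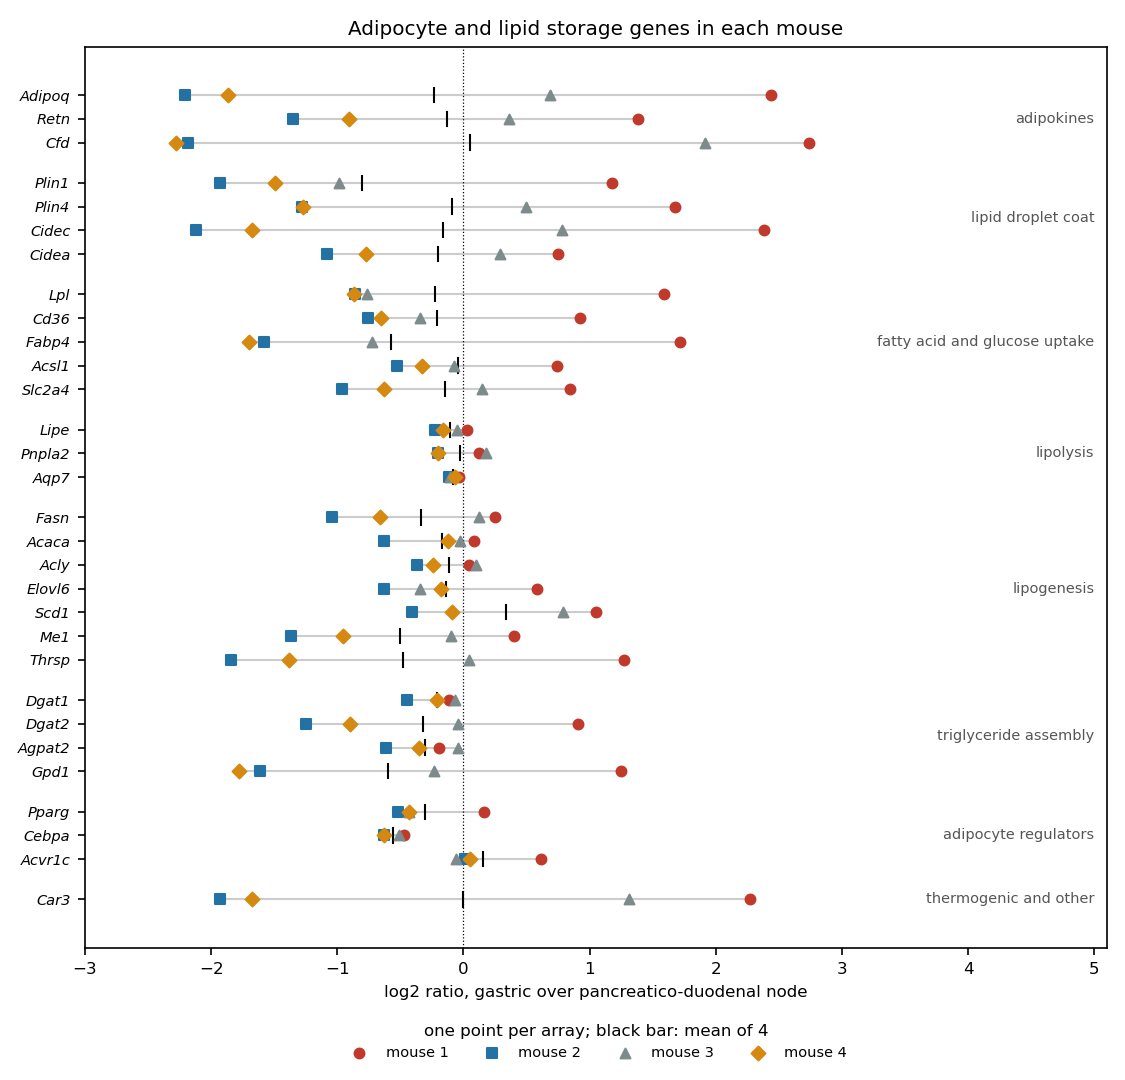
Log2 ratio of gastric over pancreatico-duodenal node (horizontal axis) for each of the 30 tested genes, grouped by role, with 1 point per mouse and a black bar at the mean of the 4 mice. Mouse 1 lies on the right for most genes and mice 2 and 4 on the left, while the lipolysis genes and Cebpa hold all 4 mice close together.

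Because of this alternation the mean over mice was small beside the spread between mice for most genes. The median of the 30 means was -0.19, against 0.03 for all features. Of the 30 means, 3 lay above the median of all features, a lean that was not tested. Of the 30 genes, 1 passed at an adjusted p under 0.05 (limma, Benjamini-Hochberg over all features), Cebpa, which was lower in the gastric node. Of all features 7.55% passed, 660 higher and 950 lower, and 1 of 30 is too few to set apart from that share. With median centring, 69.8% of features passed, 12822 higher (60.1%) and 2075 lower (9.73%), and 6 of the 30 genes passed, 5 higher and 1 lower. The lower one was Aqp7, and Cebpa did not pass there. Without mouse 1, 6 of the 30 were lower, where 10.2% of all features passed (6.2% lower and 3.96% higher): Plin1 at -1.47, Fabp4 at -1.34, Lpl at -0.83, Cd36 at -0.59, Pparg at -0.46 and Cebpa at -0.59. Without mouse 2, mouse 3 or mouse 4 none of the 30 passed, and of all features 0%, 0.0141% and 0.00469% did, all of them lower. At an unadjusted p under 0.05 (limma) there were 1, 3 and 1 of the 30, against 20.4%, 26.9% and 20.2% of all features.

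The spread of these genes between mice was wide. The range of the log2 ratio over the 4 mice, highest minus lowest, had a median of 1.73 among the 30 genes and of 0.26 among all features. It was above 2 for 12 of the 30 genes, against 0.516% of all features. A pattern of values above 0 in mouse 1 and below 0 in mice 2 and 4 was seen in 25 of the 30 genes and in 8.19% of all features. These counts are descriptions and were not tested.

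**Figure D2:**
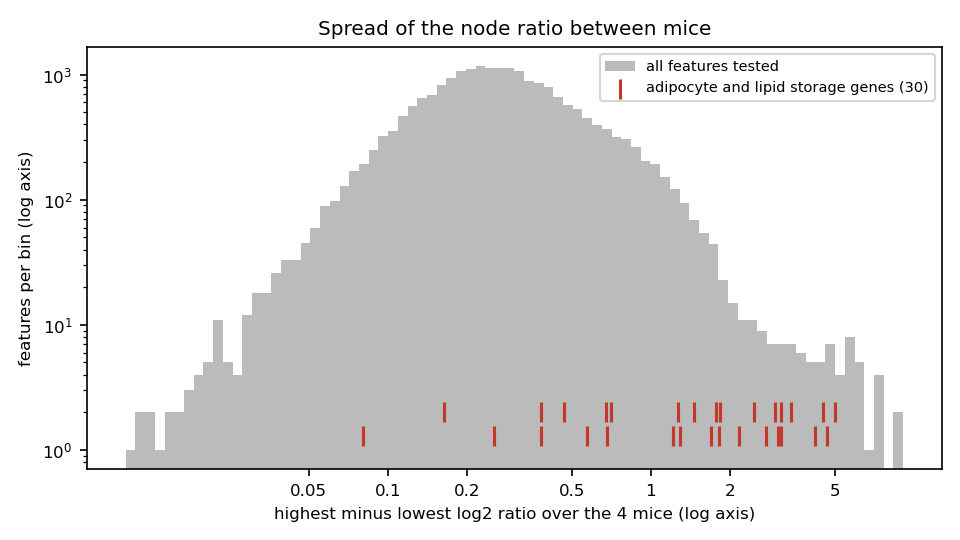
Histogram of the highest minus the lowest log2 ratio over the 4 mice (horizontal log axis) for all 21329 features tested (grey, log count axis), with the 30 adipocyte and lipid storage genes as red marks whose height has no meaning. The genes run from Aqp7 at 0.08 to Cfd at 5.01, with a median of 1.73 against 0.26 for all features.

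The intensities of each channel show in which node the levels moved. These are log2 intensities after loess and a step that gives all arrays the same distribution of mean intensity, and they are compared within 1 probe and 1 dye only. The gastric node level was highest in mouse 1 for 28 of the 30 genes, against 32.1% of all features. The pancreatico-duodenal level was highest in mouse 2 for 27 of the 30, against 20.4% of all features. Both held for 25 genes, against 8.52% of all features, and without the step between arrays for 28, against 16.8% of all features. In bulk RNA, fewer cells of a type and less RNA per cell cannot be told apart.

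Adipokines, the hormones and factors secreted by fat cells, had the largest swings of the role groups. The median over the 3 measured genes was 2.44, -2.18, 0.69 and -1.86 in mice 1 to 4. The size in mouse 3 depended on the processing. With the scanner software's processed signals or the authors' series table it was 2.35 there, beside 2.53 in mouse 1, and with a floored background 0.92. Adipoq, the gene of the insulin-sensitising hormone adiponectin, read 2.44, -2.21, 0.69 and -1.86 on the log2 ratio scale in mice 1 to 4. It was thus 5.41-fold higher in the gastric node of mouse 1 and 4.63-fold lower in that of mouse 2. Its gastric node log2 intensity was 11.30, 9.22, 7.97 and 7.54, and its pancreatico-duodenal one 8.86, 11.43, 7.28 and 9.40. Mouse 1 was high on the gastric side and mouse 2 on the other side, mouse 3 was the lowest on the pancreatico-duodenal side, and the 2 sets of 4 values overlapped. The mean log2 ratio was -0.24 ± 2.20 (SD, n = 4) with a 95% interval from -2.22 to 1.75 and did not pass (limma, adjusted p = 0.857).

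Promoter sequence, 250 bases before to 50 after the start of the gene in RefSeq (GRCm38.p6), is shown for 3 genes with different swings and for the 1 gene that passed: Adipoq at chr16:23146286-23146585 on the plus strand, Plin1 at chr7:79732727-79733026 on the minus strand, Fasn at chr11:120824498-120824797 on the minus strand and Cebpa at chr7:35119043-35119342 on the plus strand. A promoter was listed for 24 of the 34 genes. Capitals mark matches on either strand to the CCAAT box (CCAAT), to the half-site of nuclear receptors such as PPAR gamma (AGGTCA) and to a core bound by C/EBP factors (TTGCNNAA), and overlapping matches run together.
Adipoq: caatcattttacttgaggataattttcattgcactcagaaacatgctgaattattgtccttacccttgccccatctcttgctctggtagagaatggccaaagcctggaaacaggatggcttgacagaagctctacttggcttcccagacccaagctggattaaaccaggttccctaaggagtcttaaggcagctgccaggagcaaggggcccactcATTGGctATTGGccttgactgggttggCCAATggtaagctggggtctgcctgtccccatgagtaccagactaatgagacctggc
Plin1: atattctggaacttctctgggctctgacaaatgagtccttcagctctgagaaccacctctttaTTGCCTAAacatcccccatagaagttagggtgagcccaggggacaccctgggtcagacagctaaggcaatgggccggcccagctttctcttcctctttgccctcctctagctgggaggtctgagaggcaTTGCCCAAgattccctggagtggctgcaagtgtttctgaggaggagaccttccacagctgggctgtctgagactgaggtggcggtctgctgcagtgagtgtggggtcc
Fasn: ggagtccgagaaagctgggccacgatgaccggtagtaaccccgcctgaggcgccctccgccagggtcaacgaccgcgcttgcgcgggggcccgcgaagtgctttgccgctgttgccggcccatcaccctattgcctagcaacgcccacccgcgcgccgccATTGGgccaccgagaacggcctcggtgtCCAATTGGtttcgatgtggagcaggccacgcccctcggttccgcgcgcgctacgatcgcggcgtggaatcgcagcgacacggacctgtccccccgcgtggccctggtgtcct
Cebpa: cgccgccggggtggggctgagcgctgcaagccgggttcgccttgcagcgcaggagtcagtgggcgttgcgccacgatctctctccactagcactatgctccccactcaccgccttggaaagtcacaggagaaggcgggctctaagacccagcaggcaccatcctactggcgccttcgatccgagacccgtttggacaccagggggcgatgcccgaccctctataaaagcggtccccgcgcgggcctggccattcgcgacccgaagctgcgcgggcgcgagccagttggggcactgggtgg
The Adipoq window held 3 CCAAT boxes, the Fasn window 3, of which 2 overlap, and the Plin1 window 2 C/EBP cores, while none of the letters searched was found in the Cebpa window. CCAAT was found for 9 of the 24 genes and in 37.4% of all 32851 promoters, AGGTCA for 6 genes and in 16.3%, and TTGCNNAA for 4 genes and in 10.8%. A match is a description of the letters and not a site of binding.

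Cfd, the gene of adipsin or complement factor D, had the widest range of all 30 genes. Its log2 ratio was 2.74, -2.18, 1.92 and -2.28 in mice 1 to 4. In the pancreatico-duodenal node its log2 intensity ran from 8.12 in mouse 3 to 13.91 in mouse 2, and in the gastric node from 9.51 in mouse 4 to 13.63 in mouse 1. Mice 1 and 3 lay above 0 and mice 2 and 4 below it by similar amounts, so that the mean was 0.05 ± 2.65 (SD, n = 4; limma, adjusted p = 0.978). Retn, the gene of resistin, read 1.38, -1.35, 0.36 and -0.91, and its further probe 1.40, -1.62, 0.12 and -0.70. Lep read 0.26, -0.35, -0.02 and -0.04 but was well above background on only 1 array in each channel.

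The coat proteins of the lipid droplet followed the adipokines in mice 1, 2 and 4. The group median was 1.43, -1.61, 0.39 and -1.38 in mice 1 to 4. Cidec, whose product drives the growth of the single droplet of white fat, read 2.38, -2.12, 0.78 and -1.67, close to Adipoq in every mouse. Plin1, the gene of perilipin 1 that guards the droplet against lipases, read 1.18, -1.93, -0.98 and -1.49. Unlike Cidec it was below 0 in mouse 3, where its gastric log2 intensity was 6.99 and its pancreatico-duodenal one 7.97. Plin4 read 1.68, -1.28, 0.50 and -1.27. Cidea, better known from brown fat, had smaller swings at 0.75, -1.08, 0.29 and -0.77. Over the 4 mice the means ran from -0.81 ± 1.38 for Plin1 to -0.09 ± 1.45 for Plin4 (SD, n = 4), and none passed (limma, adjusted p from 0.323 to 0.916).

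**Figure D3:**
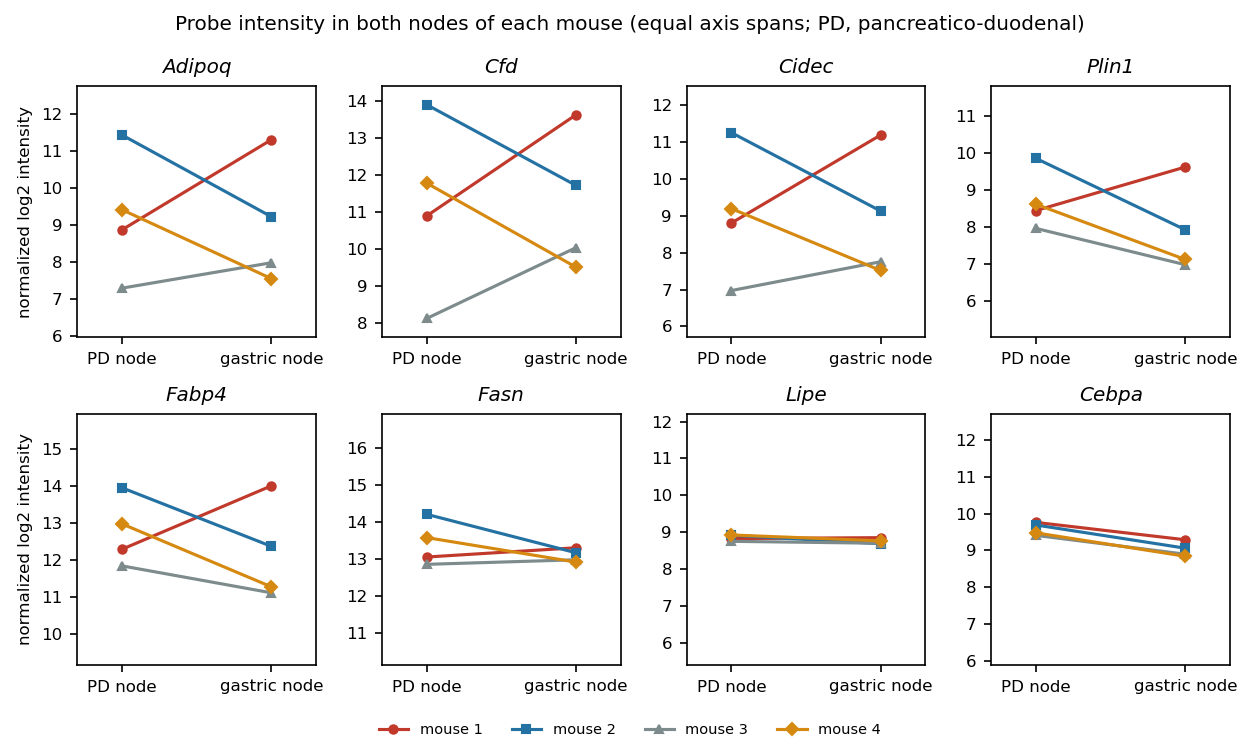
Normalized log2 intensity of 8 probes in the pancreatico-duodenal (PD, left) and the gastric node (right), with 1 line per mouse and the same vertical span in each panel. The lines of Adipoq, Cfd, Cidec, Plin1 and Fabp4 cross, with mouse 1 higher on the gastric side and mice 2 and 4 higher on the other side, whereas Lipe is nearly flat on the probe shown and Cebpa is lower on the gastric side in all 4 mice.

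Genes of fatty acid and glucose uptake had the same sign pattern with a clearly negative mouse 3 for some. Fabp4, the fatty acid carrier of fat cells and macrophages, read 1.72, -1.58, -0.73 and -1.70 in mice 1 to 4, and its 2 further probes lay between 1.31 and 1.81 in mouse 1 and between -1.43 and -0.88 in mouse 4. Lpl, the lipoprotein lipase gene, read 1.59, -0.86, -0.76 and -0.87. Mice 2, 3 and 4 lay within a narrow band on this Lpl probe and mouse 1 far above it. A further, dimmer Lpl probe read 0.86, -1.08, -0.55 and -0.77, with a wider band. Cd36, a fatty acid transporter also made by macrophages and capillaries, read 0.93, -0.76, -0.35 and -0.65. Acsl1, which encodes an acyl-CoA synthetase, read 0.74, -0.53, -0.07 and -0.33, and Slc2a4, the insulin-responsive glucose transporter gene, 0.85, -0.96, 0.15 and -0.63. Over 4 mice none of the 5 passed (limma, adjusted p from 0.528 for Fabp4 to 0.892 for Acsl1).

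Lipogenesis genes, which make fatty acids from citrate, alternated less than the adipokines. The median over the 7 genes was 0.40, -0.63, 0.04 and -0.24 in mice 1 to 4. Thrsp, a regulator of fatty acid synthesis, had the largest range and read 1.27, -1.84, 0.04 and -1.38. Me1, the gene of the malic enzyme that supplies NADPH, read 0.40, -1.37, -0.10 and -0.96. Fasn, the fatty acid synthase gene, read 0.25, -1.04, 0.12 and -0.66. On the gastric side the log2 intensity of Fasn stayed between 12.91 and 13.29, while on the pancreatico-duodenal side it ran from 12.85 in mouse 3 to 14.20 in mouse 2. Scd1, a fatty acid desaturase gene, was the member with the highest mean at 0.33 ± 0.70 (SD, n = 4), from 1.05, -0.41, 0.79 and -0.09. The elongase gene Elovl6 read 0.59, -0.63, -0.35 and -0.18.

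The first enzymes of the same route were flatter still. Acly, the ATP citrate lyase gene, read 0.05, -0.37, 0.10 and -0.24. Acaca, the acetyl-CoA carboxylase 1 gene, read 0.08, -0.63, -0.02 and -0.13, and the 2 further probes that were bright enough lay between -0.12 and 0.11 in all mice, so that the -0.63 of mouse 2 was read by the brightest probe only. None of the 7 lipogenesis genes passed over the 4 mice (limma, adjusted p from 0.296 for Me1 to 0.640 for Elovl6). With median centring Scd1 was higher at 0.92 and Acly at 0.40 (limma, adjusted p = 0.0106 and 0.00572; over all alternatives from 0.0106 to 0.792 and from 0.00572 to 0.852).

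Triglyceride assembly split into genes with wide and with narrow ranges. Gpd1, which makes glycerol 3-phosphate, read 1.25, -1.61, -0.23 and -1.78 in mice 1 to 4. Dgat2, which adds the last fatty acid, read 0.91, -1.25, -0.04 and -0.90. Its further, dimmer probes read less in mouse 1, at 0.56, -1.20, -0.10 and -0.65 and at 0.27, -1.05, -0.39 and -0.51. The other enzyme of that step, encoded by Dgat1, read -0.12, -0.44, -0.06 and -0.21, and Agpat2, an acyltransferase gene, -0.19, -0.62, -0.05 and -0.35. A further, dimmer Dgat1 probe read -0.38, -0.49, -0.18 and -0.36. Dgat1 and Agpat2 were below 0 in all 4 mice, with means of -0.21 ± 0.17 and -0.30 ± 0.24 (SD, n = 4), and did not pass (limma, adjusted p = 0.126 and 0.107). With median centring Dgat1 turned and was higher at 0.23 (limma, adjusted p = 0.0336; from 0.0336 to 0.308 over all alternatives), and Agpat2 was at 0.033 (adjusted p = 0.768).

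Lipolysis genes differed less between the nodes than the adipokines did. The median over the 3 measured genes was 0.03, -0.20, -0.05 and -0.16, against 2.44, -2.18, 0.69 and -1.86 for adipokines in the same mice. Pnpla2, the gene of adipose triglyceride lipase, read 0.13, -0.20, 0.18 and -0.20, with a further, dimmer probe at -0.10, -0.54, -0.03 and -0.34. Lipe, the hormone-sensitive lipase gene, read 0.03, -0.23, -0.05 and -0.16, with a further, dimmer probe at -0.22, -0.64, -0.30 and -0.39. Aqp7, the glycerol channel gene, read -0.03, -0.11, -0.10 and -0.07, but its probe was well above background on 1 pancreatico-duodenal and 3 gastric arrays. With median centring the lipolysis medians became 0.44, 0.17, 0.32 and 0.30, above 0 in all mice, and Pnpla2 and Lipe passed as higher at 0.52 and 0.31 (limma, adjusted p = 0.00137 and 0.00441; over all alternatives from 0.00137 to 0.873 and from 0.00441 to 0.601). Aqp7 passed as lower with that centring, at -0.29 (limma, adjusted p = 0.00223; from 0.00223 to 0.794 over all alternatives). The median of all features was itself 0.31 there.

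**Figure D4:**
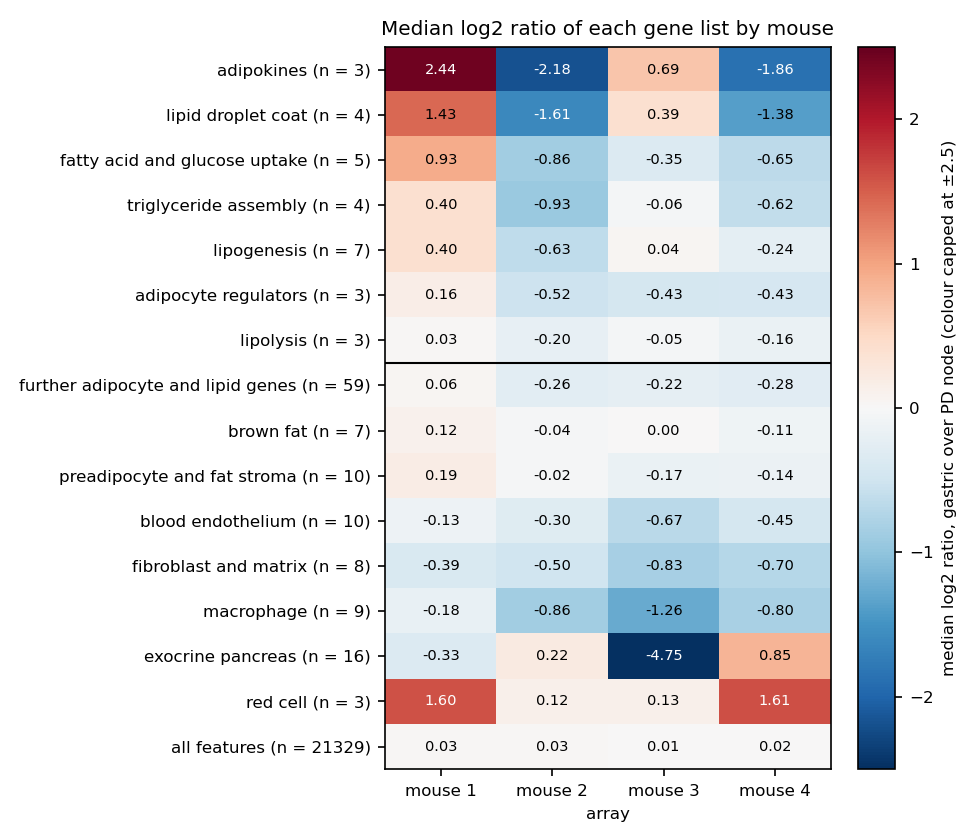
Median log2 ratio of gastric over pancreatico-duodenal node for each gene list (rows, with the number of measured genes) on the array of each mouse (columns), printed in each cell and coloured up to 2.5 in size. Adipokines and droplet coat genes alternate between mouse 1 and mice 2 and 4, lipolysis genes stay between -0.20 and 0.03, and the matrix, vessel and macrophage lists are below 0 in all 4 mice.

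The regulators of fat cell identity had smaller swings than the adipokines. Their group median was 0.16, -0.52, -0.43 and -0.43 in mice 1 to 4. Cebpa, the C/EBP alpha gene, which is also active in myeloid cells, was lower in the gastric node in 4 of 4 mice at -0.47, -0.63, -0.51 and -0.63. Its gastric log2 intensities of 8.84 to 9.29 did not overlap the pancreatico-duodenal ones of 9.41 to 9.76, and it was the only one of the 30 genes without overlap, against 16.3% of all features. The mean was -0.56 ± 0.08 (SD, n = 4; SE 0.05; limma, adjusted p = 0.0198), and the further probe read -0.40, -0.38, -0.35 and -0.41. Without mouse 2, 3 or 4 the adjusted p of Cebpa became 0.134, 0.0808 and 0.151, with means of -0.54, -0.58 and -0.54, and with median centring the mean was -0.11 (limma, adjusted p = 0.105). Over all 15 alternatives its adjusted p ran from 0.00999 to 0.151, and Cebpa was below 0 in each.

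Macrophage markers moved in the same direction as Cebpa. Of 10 markers 9 were measured and 5 were lower and none higher, against 4.45% and 3.09% of all features, with list medians of -0.18, -0.86, -1.26 and -0.80 in mice 1 to 4. Their summed level on the log2 scale was 15.52 to 16.22 in the gastric and 16.33 to 16.80 in the pancreatico-duodenal node. Their part in the Cebpa result was not tested.

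Pparg, the gene of PPAR gamma, read 0.16, -0.52, -0.43 and -0.43, with mouse 1 above 0 and the others in a narrow band below it. Its mean was -0.30 ± 0.31 (SD, n = 4) and did not pass (limma, adjusted p = 0.158). Acvr1c, the gene of the activin receptor ALK7 of fat cells, read 0.61, 0.01, -0.06 and 0.05 from a dim probe, and a further probe reached only 0.24 in mouse 1.

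Car3, the carbonic anhydrase 3 gene, one of the most abundant transcripts of white fat, read 2.27, -1.93, 1.31 and -1.67 in mice 1 to 4. Like Cfd it was above 0 in mouse 3, and its pancreatico-duodenal log2 intensity was lowest there at 7.44 and highest in mouse 2 at 12.59. The mean was -0.01 ± 2.11 (SD, n = 4; limma, adjusted p = 0.997). Ucp1 was not well above background on any array in either channel, so no level of this brown fat marker could be given.

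Mouse 3 split the genes that shared their signs in mice 1, 2 and 4. The 25 genes were chosen as above 0 in mouse 1 and below it in mice 2 and 4, so only mouse 3 could split them. Of these, 13 were above 0 in mouse 3 and 12 below, where 1.66% and 6.54% of all features had the same 4 signs. Cfd, Car3, Scd1, Cidec and Adipoq were the highest there at 1.92, 1.31, 0.79, 0.78 and 0.69, and Plin1, Lpl and Fabp4 the lowest at -0.98, -0.76 and -0.73. In the same mouse the macrophage median was -1.26, the blood endothelium median -0.67, the fibroblast and matrix median -0.83 and the exocrine pancreas median -4.75. The part of these in the mouse 3 values was not tested.

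Different probes of 1 gene mostly kept mouse 1 above mice 2 and 4. For 13 genes with more than 1 probe bright enough to be kept, every probe of 12 read higher in mouse 1 than in mouse 2, the exception being Cebpa. Every probe of 11 read higher in mouse 1 than in mouse 4, the exceptions being Acaca and Dgat1. The order of mice 2 and 4 differed between the probes of Acaca, Fabp4 and Lpl. The largest spread between probes of a gene on 1 array was smaller than the range over mice in 11 of the 13, and the exceptions were Cebpa and Lipe, whose ranges over mice were only 0.16 and 0.25.

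Further genes of fat cells and lipid metabolism, 70 in number and none of them among the 34, moved less. Of 59 that were measured, 2 were higher and 7 lower in the gastric node, against 3.09% and 4.45% of all features. The lower ones were led by the glycogen phosphorylase gene Pygl at -0.72 ± 0.18, the droplet protein gene Plin2 at -0.70 ± 0.33, the chemerin gene Rarres2 at -0.55 ± 0.28 and the desaturase gene Fads1 at -0.54 ± 0.12 (SD, n = 4). Cebpb, an early regulator of fat cell differentiation and a myeloid gene, was at -0.48 ± 0.12 and the seipin gene Bscl2 at -0.32 ± 0.11. These 6 were below 0 in all 4 mice, with adjusted p from 0.0228 to 0.0447 (limma). Among the other called genes were the desaturase gene Fads2 at -0.23 and the elongase gene Elovl5 at 0.21, named after their values were seen. With the scanner software's processed signals 3 of the 59 passed, all lower, where 5.03% of all features did (2.29% higher and 2.74% lower). Without mouse 1 there were 26, 1 higher and 25 lower, where 10.2% of all features passed (3.96% higher and 6.2% lower). Without mouse 2, mouse 3 or mouse 4 there were none, where 0%, 0.0141% and 0.00469% of all features passed. At an unadjusted p under 0.05 (limma) there were then 18, 16 and 15 of the 59, against 20.4%, 26.9% and 20.2% of all features.

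The widest ranges of these further lists again had mouse 1 above 0 and mice 2 and 4 below. Cyp2e1, a cytochrome P450 gene, read 1.24, -1.73, -0.71 and -1.42 in mice 1 to 4. Rbp4, the retinol carrier gene, read 1.10, -1.70, -1.03 and -1.81, and the haptoglobin gene Hp 1.26, -1.35, -0.17 and -0.87. The carboxylesterase gene Ces1d read 0.90, -1.68, -0.74 and -1.08, and the growth hormone receptor gene Ghr 1.26, -0.82, -1.02 and -0.42. In the brown fat list, 7 of 12 genes were measured and none passed (1 at an unadjusted p under 0.05, against 30.7% of all features; limma), with a widest range in Cox8b, a cytochrome oxidase subunit gene, at 1.01, -0.90, 0.00 and -0.63.

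Markers of the stroma in which fat cells lie had smaller medians than the adipokines. Preadipocyte and fat stroma markers (10 of 11 measured) had medians of 0.19, -0.02, -0.17 and -0.14, and their summed level on the log2 scale was 15.22 to 16.07 in the gastric and 15.90 to 16.31 in the pancreatico-duodenal node. The signs of these medians were those of Plin1, Fabp4 and Lpl, and differed in mouse 3 from those of Adipoq, Cfd, Cidec and Car3. Of the 10 measured markers, 8, 4, 0 and 4 were above 0 in mice 1 to 4. Of the bright genes of that list, named after their values were seen, the decorin gene Dcn read 0.20, -0.56, -1.80 and -0.96. The lumican gene Lum read 0.34, -0.37, -1.52 and -0.42 and the gelsolin gene Gsn 0.18, -0.53, -0.64 and -0.58. Others went other ways: Ly6a, brighter than Lum, read -0.21, 0.17, -0.09 and 0.05, and Pdgfrb 0.09, 0.50, -0.10 and -0.17. Blood endothelium markers (10 of 10) had medians of -0.13, -0.30, -0.67 and -0.45, and fibroblast and matrix markers (8 of 8) of -0.39, -0.50, -0.83 and -0.70. Mesothelium markers (4 of 9 measured) had medians of -0.49, -0.30, -1.40 and -0.38. Red cell markers (3 of 5) were at 1.60, 0.12, 0.13 and 1.61, above 0 in every mouse and larger in mice 1 and 4 than in the others. Skeletal and smooth muscle markers (6 of 8) stayed between -0.09 and 0.06 and islet markers (5 of 9) between -0.05 and 0.05. The lymph node stroma list (7 of 7) stayed between -0.12 and 0.06, and the only liver marker measured of 7 between -0.06 and 0.29. The part of any of these in the swings of the fat cell genes was not tested.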

How the data were processed

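Both nodes of 4 mice were compared on 1 two-colour Agilent array per mouse. The deposited scanner files hold, per the file headers, spot and background intensity in both channels, processed intensity and the log10 ratio (Cy5 to Cy3). Agilent Feature Extraction, version 10.2.1.3, made them. The authors' deposited series table holds log2 values that equalled the log2 ratio of processed Cy5 over Cy3 within 5.11e-05.

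Mean intensities were corrected by normexp (offset 50) and loess within arrays in limma 3.58.1 (R 4.3.3). Control and outlier-flagged spots had weight 0, and flagged spots were left out. The offset pulls ratios of dim probes toward 0. Of 41174 probes, 27613 were well above background in 1 channel on at least 3 of 4 arrays. Accessions were matched without version to RefSeq gene names of GRCm38.p6, which named 24844 probes; the array design names another build, so no array coordinates are given. The brightest probe stood for a gene. Mean log2 ratios were tested against 0 by limma's lmFit and eBayes with Benjamini-Hochberg adjustment over 21329 features, and the ratio pairs both nodes of a mouse. Loess and the limma test were tried on simulated intensities with changes shared by all arrays. Background correction, filter and probe choice were not part of that trial. Alternatives covered background, source of the ratio, centring, scaling, filter, probe choice, each mouse, variance model and pairing.

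Genes and lists were chosen with earlier results of these data known. All 34 genes are reported; further genes named are those called, to a maximum of 6, and the 6 with the widest range. 1 further called gene is not reported here.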

Additional observations from a re-analysis of the deposited data

Results flagged for a closer look

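Among 39 sets of 4 values examined (30 genes and 9 medians), 3 had 1 mouse far from the other 3, a gap that chance gives in about 1 of 20 sets. Lpl in mouse 1 was at 1.59 on its brightest probe, while the other 3 mice lay between -0.87 and -0.76. A further, dimmer Lpl probe read 0.86, -1.08, -0.55 and -0.77 in mice 1 to 4. Pparg in mouse 1 was at 0.16 and the others between -0.52 and -0.43. The median of the adipocyte regulators in mouse 1, also 0.16, is the value of Pparg itself.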

How the results depend on the processing

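The member median kept its sign in mice 1, 2 and 4 in all 9 alternatives that give a value per mouse. In mouse 3 it was above 0 with median centring (0.21), the processed signals (0.0017) and the series table (0.0017). The count of all 1610 called features became 1073 with the processed signals, 914 with no replicate block (channels unpaired) and 14897 with median centring, and ran from 0 to 2167 when 1 mouse was left out. The 1 called member became 6 with median centring, Cebpa not among them, and 2 with no filter, where Ucp1 was added. Without 1 mouse the count was 0 to 6. Unpaired channels left the member count at 1. The 9 called further genes became 3 with the processed signals, 3 with the authors' series table, 23 with median centring and 5 with no replicate block, and 0 to 26 without 1 mouse.

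The lipolysis medians moved beyond their small SD: with median centring to 0.44, 0.17, 0.32 and 0.30 in mice 1 to 4, with the mean of a gene's probes to -0.37 in mouse 2 and -0.27 in mouse 4, and with the filter on both channels, which leaves 2 genes, to 0.063 in mouse 3. The role group alternatives were chosen after seeing the data.

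With median centring the median of all features was 0.31, and 23 of 30 members kept their side of it. Signs turned there, of values called in neither setting, for Adipoq (0.16), Retn (0.013), Plin4 (0.25), Cidec (0.22), Lpl (0.29), Cd36 (0.23), Fabp4 (0.030), Acsl1 (0.45), Fasn (0.32), Acaca (0.0071), Elovl6 (0.26), Dgat2 (0.18), Agpat2 (0.033), Pparg (0.016), Acvr1c (-0.0019) and Car3 (0.47), and with a call for Lipe (0.31), Pnpla2 (0.52), Acly (0.40) and Dgat1 (0.23). Cfd turned to -0.13 with arrays scaled. Retn turned to 0.33 and Car3 to 0.15 with the processed signals and the series table, and Car3 to 0.053 with a floored background and 0.0044 with none. Leaving out 1 mouse turned means that had no call, with ranges of -1.13 to 0.42 for Adipoq, -0.63 to 0.28 for Retn, -0.85 to 0.82 for Cfd, -0.69 to 0.30 for Plin4, -1.005 to 0.50 for Cidec, -0.52 to 0.088 for Cidea, -0.31 to 0.11 for Acsl1, -0.48 to 0.12 for Slc2a4, -0.092 to 0.035 for Pnpla2, -0.38 to 0.019 for Elovl6 and -0.77 to 0.64 for Car3. The cause was not tested. Dim probes limit Lep, Ucp1, Aqp7 and Acvr1c.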

Other observations

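Genes outside the lists whose 4 log2 ratios lay closest to those of Adipoq, by root-mean-square difference over the 4 arrays, were Cdo1, Glb1l2, Nnmt, Cpa3, Retnla and Tspan12. Cdo1, which encodes cysteine dioxygenase, was the closest, with a difference of 1.06 and log2 ratios of 1.38, -1.23, -0.09 and -0.50 in mice 1 to 4. Glb1l2 followed at 1.36 (0.87, -0.88, -0.14 and -0.29) and Nnmt, which encodes nicotinamide N-methyltransferase, also at 1.36 (0.89, -0.71, -0.17 and -0.44). Cpa3, a mast cell protease gene, was at 1.39 (0.56, -1.53, -0.49 and -0.33). Retnla, which encodes a resistin-like molecule, was at 1.47 (0.97, -0.45, -0.92 and -0.98) and Tspan12 at 1.49 (0.90, -0.35, -0.41 and -0.51). All 6 lay closer to 0 than Adipoq in mice 1 and 2, and none passed over the 4 mice (limma, adjusted p from 0.372 for Cpa3 to 0.867 for Cdo1).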
